A study of Rattus norvegicus with 6 samples.

Results

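The 10 transcription regulators described here steer the Schwann cell lineage, the glia of peripheral nerve. They are Sox10, Pou3f1, Pou3f2, Egr2, Nfatc4, Yy1, Sox2, Pax3, Tfap2a and Id2. They were taken from the deposited gene table by symbol, and 9 of the 10 have a row among its 30957 Ensembl rat genes. Pou3f1 was not analysed here. The study compared crushed sciatic nerves of Sprague Dawley rats with intact nerves from the opposite side. Each group has 3 libraries, and its methods describe adult males and the proximal stump collected 4 days postinjury. No transgene, allele or drug is named for either group, and the intact nerve comes from an animal whose other nerve was injured. Nothing in the labels says which libraries come from 1 rat, so p-values measure the spread between these libraries. Total counts per library lay between 24844371 and 27139360.

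Schwann cells arise from the neural crest and pass through precursor and immature stages before they either myelinate an axon or ensheathe several small ones. Sox10 is required at every stage. The POU factors Pou3f1 and Pou3f2 bring the cell to the promyelinating stage, and Egr2 (Krox20) then switches on the genes of myelin and lipid synthesis together with Sox10. Nfatc4 acts with Sox10 downstream of calcineurin, and Yy1 takes part in the induction of Egr2. Sox2, Pax3 and Id2 belong to immature cells and oppose myelin genes, and Tfap2a marks the precursor stage. After injury, myelinating cells lose Egr2 and regain part of the immature program, with Jun as a central driver.

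The libraries were first compared with what a nerve should contain. Sox10 had 0 counts in 5 libraries and 1 count in the third crushed library. The Schwann cell cadherin Cdh19 had 0 counts in all 6. The calcium-binding protein S100b had between 0 and 3 counts. Of the 9 defining Schwann cell markers with a row, 4 never exceeded 3 counts, the level up to which counts are not told from 0 here. The summed normalized CPM of these 9 (counts per library size, scaled by TMM factors) lay between 10.9 and 12.4 in the intact libraries and between 8.57 and 9.8 in the crushed libraries. Ptprc, the leukocyte surface phosphatase, was at 0 counts throughout, and 5 of 12 macrophage markers had no count at all. The macrophage markers Cd68, Cd14 and Csf1r were detected, with between 18 and 84 counts. None of these 3 differed at an adjusted p under 0.05 by edgeR's quasi-likelihood test. The 12 macrophage markers summed to between 3.94 and 5.61 CPM in intact and between 4.43 and 6.3 in crushed libraries. The 10 proliferation markers summed to between 4230 and 4450 CPM in intact and between 4110 and 4230 in crushed libraries. The 13 fibroblast and mesenchymal markers summed to between 4370 and 4550 CPM in intact and between 3610 and 3740 in crushed libraries, although Dcn, Lum, Postn and Col1a2 were at 0. Most of that sum came from Vim, Fn1 and S100a4, with means of 2300, 1250 and 588 CPM in the intact libraries. Col1a1 had a mean of 20 CPM there. By edgeR's quasi-likelihood test, 4 of the 9 fibroblast and mesenchymal markers tested were lower in crushed libraries at an adjusted p under 0.05. Over all genes tested the share lower was 1.65%. Groups are named as in the labels, although Sox10, Cdh19 and S100b were at or near 0 in both. The defining markers Gfap and Erbb3 were detected, with between 65 and 135 counts. With these markers it is uncertain that the deposited values are those of nerve tissue, and every difference below is one between libraries labelled crushed and libraries labelled intact. What part the makeup of the libraries plays in the results was not tested, and in such bulk RNA fewer cells of a type cannot be told apart from less RNA per cell.

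**Figure D1:**
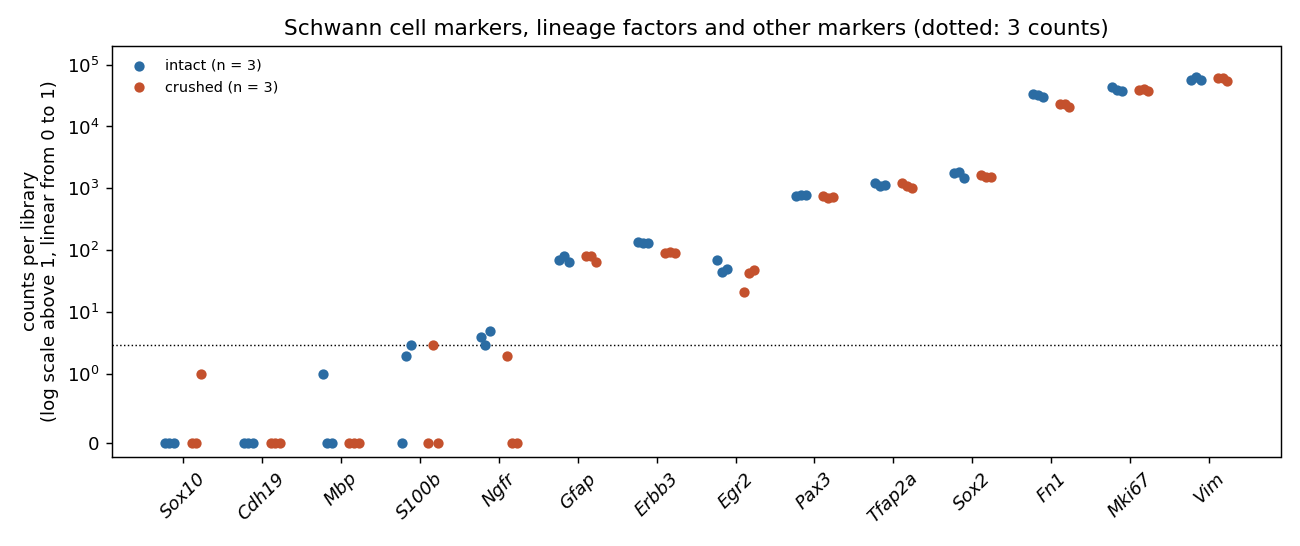
Counts per library of Schwann cell markers, lineage factors and markers of other programs, with 1 point for each of 3 intact and 3 crushed libraries and a dotted line at 3 counts. The axis is logarithmic above 1 and linear from 0 to 1. Sox10, Cdh19, Mbp and S100b sit at or under the line, whereas Pax3, Tfap2a and Sox2 lie between 710 and 1858 counts.

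The levels of the factors formed a graded series. Sox2, Yy1, Tfap2a, Pax3 and Id2 were the higher ones, Nfatc4 and Egr2 were low but detected, and Sox10 and Pou3f2 were not detectable at this depth. Levels were compared between genes with the deposited FPKM, which divides counts by gene length. Sox2 ranged over the 6 libraries from 24.2 to 30.1 FPKM with a median of 26.1, and Yy1 from 23.9 to 26.1 with a median of 25.4. These ranges overlapped. Tfap2a ranged from 12.3 to 14.5 FPKM and Pax3 from 12 to 14.3, again with overlap, and both lay below every library of Yy1. Id2 came next, between 5.08 and 7.74 FPKM. Nfatc4 stayed between 0.932 and 1.06 FPKM, and Egr2 between 0.239 and 0.835, with no overlap between any of these 3. Among the 17425 genes with at least 1 count, Sox2 stood above 79.5% of genes in mean FPKM, Pax3 above 65% and Egr2 above 31.4%.

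**Figure D2:**
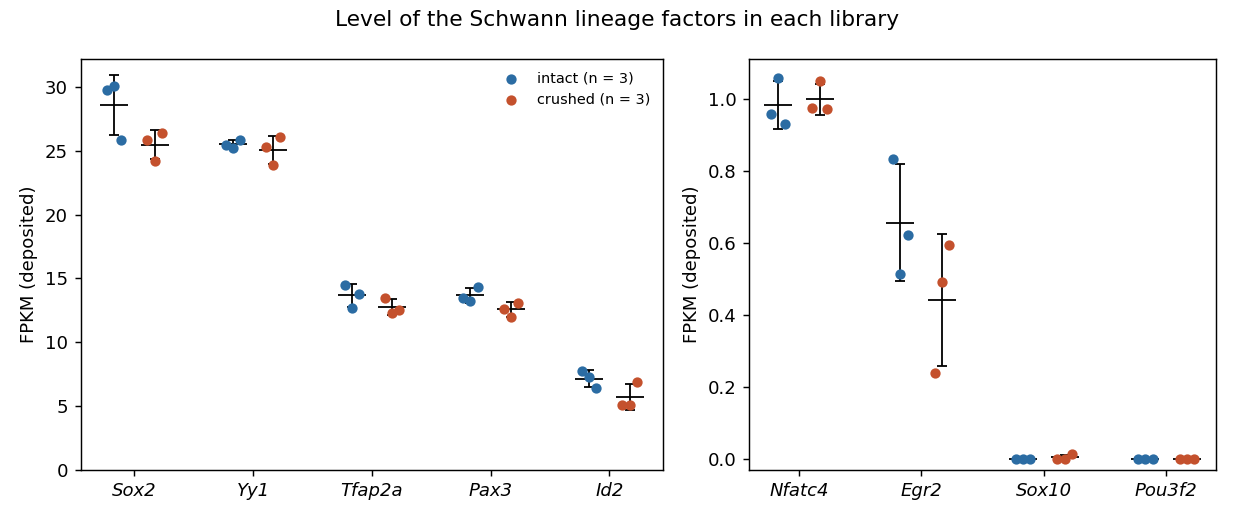
Deposited FPKM of the 9 factors in each library, with the mean and SD of 3 intact and 3 crushed libraries; the left and right panels have different linear scales. Sox2 and Yy1 share the top, Sox10 and Pou3f2 lie at 0 or next to it, and every pair of groups except those of Pax3 overlaps or coincides.

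In crushed against intact libraries no lineage factor passed the test. The comparison used edgeR's quasi-likelihood test over 12393 genes, of which 7 are among the factors. By the study's own limits (more than 1 in either direction on the log2 scale, with p under 0.001, read as unadjusted), 0 of these 7 were called, against 0.282% of all genes tested. At a Benjamini-Hochberg adjusted p under 0.05 the number was also 0 of 7, against 3.12% of all genes. At an unadjusted p under 0.05, 2 of 7 were lower in crushed libraries, Sox2 and Id2, against 9.5% of all genes. DESeq2 likewise gave 0 of 7 at an adjusted p under 0.05. The estimates were negative for 6 of the 7, while the median log2 fold change of all genes tested was -0.00174.

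The promoters of Sox2, Id2 and Pax3 are shown as the matched immature and repair factors, and that of Egr2 as the regulator of myelin genes. They were chosen after the values were seen. RefSeq promoters of the GRCr8 assembly, a later build than that of the table, matched 6 of the 10 factors. Each line gives the 140 bases before the start used in the promoter table, 5′ to 3′ on the gene's strand, in lower case with matches in capitals. The CCAAT box (CCAAT on either strand, thus also ATTGG) and the CArG box were searched in the 250 bases before the start. The CArG box is bound by serum response factor in immediate early genes. The Egr2 stretch is chr20:21054442-21054581 (minus strand), that of Sox2 chr2:119464991-119465130 (plus strand), that of Id2 chr6:47470996-47471135 (minus strand) and that of Pax3 chr9:87112532-87112671 (minus strand).
Egr2: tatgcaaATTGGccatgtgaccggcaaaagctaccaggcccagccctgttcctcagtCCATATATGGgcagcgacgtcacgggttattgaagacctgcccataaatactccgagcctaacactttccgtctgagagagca
Sox2: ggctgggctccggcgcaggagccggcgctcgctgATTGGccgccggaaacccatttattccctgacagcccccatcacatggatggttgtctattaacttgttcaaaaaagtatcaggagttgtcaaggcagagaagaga
Id2: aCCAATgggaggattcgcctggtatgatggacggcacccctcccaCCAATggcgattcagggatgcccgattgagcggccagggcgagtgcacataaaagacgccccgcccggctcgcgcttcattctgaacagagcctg
Pax3: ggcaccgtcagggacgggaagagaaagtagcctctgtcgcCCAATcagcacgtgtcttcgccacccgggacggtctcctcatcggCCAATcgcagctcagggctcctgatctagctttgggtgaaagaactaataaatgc
Egr2 has a CArG box whose first base lies 83 bases before the start and a CCAAT box at 133 bases. That start is not the first base of the RefSeq span of Egr2, whereas those of the other 5 matched factors are the first base of the gene. A CArG box was found in 1.5% of all 33469 promoters over the same length and in 1 of the 6 matched here. A CCAAT box was found in 5 of the 6, against 34% of all promoters. The boxes of Sox2 at 106 bases, of Id2 at 139 and 95 bases and of Pax3 at 100 and 55 bases are those in capitals above. These are letter matches in the window and no measure of binding.

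The factors of the immature and repair states come first, since cells of injured nerve are known to regain part of the immature program. Tfap2a, which marks the precursor stage, is listed with them. Sox2, an HMG-box factor of immature cells, lies on chromosome 2 from 121165137 to 121167545 (all gene positions are those of the deposited table, and the submitters' processing notes name Rnor_6.0). Its normalized CPM was 69.8, 70.4 and 60.3 in intact libraries 1, 2 and 3 and 59.8, 55.9 and 60.9 in crushed libraries 1, 2 and 3. Intact library 3 fell among the crushed values, so the groups overlapped. The log2 fold change of Sox2 was -0.18 (95% interval -0.33 to -0.04, unadjusted p = 0.0184, adjusted p = 0.197 by edgeR's quasi-likelihood test), or 0.88 of the intact level. Without intact library 3 it was -0.25 (adjusted p = 0.0579).

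Id2, an inhibitor that binds helix-loop-helix factors and keeps them from DNA, lies on chromosome 6 from 44348501 to 44363915. It measured 14.9, 13.9 and 12.2 CPM in the intact libraries and 9.59, 9.61 and 13 in the crushed libraries. Crushed library 3 stood apart from the other crushed libraries and inside the intact range. The log2 fold change of Id2 was -0.35 (95% interval -0.64 to -0.07, unadjusted p = 0.0195, adjusted p = 0.200 by the edgeR test), and -0.51 without crushed library 3 (adjusted p = 0.0606). Neither Sox2 nor Id2 therefore passed the adjusted threshold with the library that stood apart or without it.

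Pax3, a paired-box factor that represses myelin genes, lies on chromosome 9 from 84005183 to 84101172. Its CPM was 29.9, 29.3 and 31.4 in intact and 27.5, 26.2 and 28.7 in crushed libraries. All crushed values lay below all intact values, which held for 1 of the 7 factors tested and for 12.2% of all genes tested. The log2 fold change was -0.14 (95% interval -0.28 to 0.00, adjusted p = 0.319 by the edgeR test). Tfap2a, the AP-2 factor of precursors, lies on chromosome 17 from 24654902 to 24670457. It had 48.3, 42.1 and 45.9 CPM in intact and 44.3, 40.4 and 41.2 CPM in crushed libraries, with overlap between the groups. Its log2 fold change was -0.11 (95% interval -0.26 to 0.03, adjusted p = 0.431). The intervals of these 4 factors lay between -0.64 and 0.03, so a rise past the study's limit of 1 lay outside each of them.

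**Figure D3:**
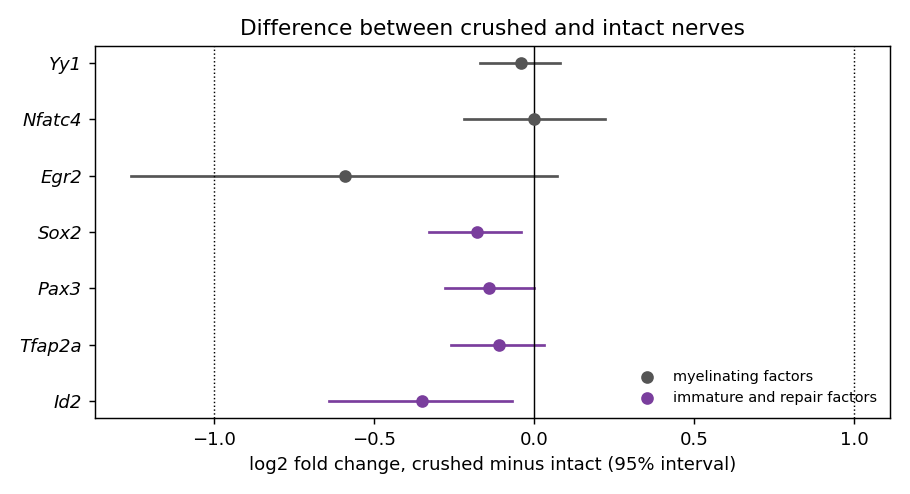
Log2 fold change of the 7 factors tested, crushed minus intact, with 95% intervals from edgeR's quasi-likelihood test on 3 against 3 libraries; dotted lines mark the study's limit of 1 in either direction. The 4 immature and repair factors lie between -0.35 and -0.11, and the interval of Egr2 is the widest, from -1.26 to 0.07.

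Of the promyelinating and myelinating factors, Egr2 was low in every library. This zinc finger factor, the master regulator of the myelin genes, lies on chromosome 20 from 22454463 to 22459025. Reads on Egr2 numbered 69, 44 and 50 in intact libraries 1, 2 and 3, and 21, 43 and 48 in the crushed ones. Crushed library 1 was the low value, and the other crushed libraries lay close to intact libraries 2 and 3. The log2 fold change of Egr2 was -0.59 (95% interval -1.26 to 0.07, adjusted p = 0.370 by the edgeR test). It was -0.29 without crushed library 1 (adjusted p = 0.696), -0.37 without intact library 1 (adjusted p = 0.663) and -0.86 without crushed library 3 (adjusted p = 0.316). With so few counts neither a fall past the limit of 1 nor the lack of any change was outside the interval.

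Yy1, a zinc finger factor found in most cell types, lies on chromosome 6 from 132702448 to 132727046. Its CPM was 40.4, 39.8 and 40.6 in intact and 39.4, 37.3 and 40.7 in crushed libraries. Its log2 fold change of -0.04 had a 95% interval of -0.17 to 0.08 (adjusted p = 0.767 by the edgeR test). Nfatc4, a calcineurin-dependent factor on chromosome 15 from 34493138 to 34504326, had 7.03, 7.77 and 6.78 CPM in intact and 7.03, 7.55 and 7.02 CPM in crushed libraries. Its group means were both 7.2 CPM, and the interval of the log2 fold change ran from -0.22 to 0.22 (adjusted p = 0.998). For both factors the crushed and intact values overlapped.

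Pou3f2 (Brn2), on chromosome 5 from 36681528 to 36683356, had 0 counts in all 6 libraries. A count of 0 allows up to 3 counts, which correspond to between 0.11 and 0.121 normalized CPM and cover counting error only. Sox10, on chromosome 7 from 120393254 to 120403523, was at or under that limit in both groups, and no fold is given. In a fit of all genes with at least 1 count, Sox10 had an adjusted p of 0.684 by the edgeR test. Another gene of the table, AC096473.3, overlaps the span of Sox10 and had between 1 and 3 counts per library. The other 8 factors overlap no other gene of the table.

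Factors were also set against each other within a library by the ratio of their FPKM. Sox2 exceeded Egr2 by 35.6-, 58.8- and 41.6-fold in the intact libraries and by 108-, 49.1- and 44.2-fold in the crushed libraries. The high value belongs to crushed library 1, in which Egr2 had 21 counts, and the groups overlapped. The ratio of Sox2 to Yy1, of the myelinating factors, was 1.12 ± 0.104 in intact and 1.01 ± 0.00724 in crushed libraries (SD, n = 3 each). For Sox2 to Pax3, both immature and repair factors, the ratio was 2.1 ± 0.249 (SD, n = 3) in intact and 2.03 ± 0.0257 (SD, n = 3) in crushed libraries.

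For the factors with an unadjusted p under 0.05, the genes most like them over the 6 libraries were found by Euclidean distance of centred log2(CPM + 0.5). Similar log2 fold changes follow from this choice, since the distance covers the same 6 libraries. For Sox2 these were Rn60_14_0866.4 (distance 0.0583) and Sgk3 (distance 0.0727), with log2 fold changes of -0.16 and -0.22. For Id2 these were Nqo1 (distance 0.158) and Zfp239 (distance 0.162), with log2 fold changes of -0.39 and -0.40. Of these 4 genes Nqo1 alone had an adjusted p under 0.05 (adjusted p = 0.0337 by the edgeR test).

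In the wider set of lineage regulators 7 genes passed the test, and 6 of them were lower in crushed libraries. Of 56 regulators listed, 52 have a row, with 53 rows in all since Rbpj has 2. Of these rows 42 were tested, 6 were lower and 1 higher in crushed libraries at an adjusted p under 0.05. Over all genes tested the shares were 1.65% lower and 1.47% higher. The median log2 fold change of the list was -0.04, and none reached the study's limits. Markers of fibroblasts (4 of 9 tested) and mural cells (2 of 5 tested) were also lower at this threshold, and their part in these differences was not tested. Of the same family as Egr2, the immediate early factor Egr1 measured 93.1, 79.4 and 84.1 CPM in intact and 50.1, 53.1 and 50.7 CPM in crushed libraries. All crushed values of Egr1 lay below all intact values, and it fell by 0.74 on the log2 scale (SE 0.0625, adjusted p = 8.91e-05 by the edgeR test). Nab2, a corepressor that binds Egr proteins and is needed with Nab1 for myelination, fell by 0.31 (adjusted p = 0.00717), a call lost without crushed library 1 (adjusted p = 0.0543). The log2 fold change of Nab1 was 0.00 (adjusted p = 0.999), and that of Egr3 -0.45 (adjusted p = 0.582) with between 7 and 20 counts.

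Other regulators also moved. Etv1, an ETS factor, fell from 34.1 ± 1.54 to 22 ± 1 CPM (SD, n = 3 each, log2 fold change -0.63, adjusted p = 0.000352 by the edgeR test). Maf, which acts on cholesterol synthesis in Schwann cells downstream of neuregulin, fell from 21.4 ± 2.07 to 14.9 ± 1.4 CPM (log2 fold change -0.53, adjusted p = 0.0151). Ppp3ca, a catalytic subunit of the calcineurin that activates Nfatc4, fell by 0.29 on the log2 scale (adjusted p = 0.00288), and Runx2 by 0.21 (adjusted p = 0.0222). The calls of Maf and Runx2 held in 10 and 6 of 12 other settings. That of Maf was lost without intact library 2 or crushed library 2, and that of Runx2 with limma at both pseudocounts and without intact library 2 or 3 or crushed library 1 or 2. Stat3, the cytokine-activated factor that sustains repair cells, was the 1 regulator to rise, from 211 ± 6.13 to 273 ± 4.9 CPM (SD, n = 3 each, log2 fold change 0.37, adjusted p = 0.000421).

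Jun, the regulator best known for the repair state, measured 162, 143 and 133 CPM in intact and 132, 123 and 126 CPM in crushed libraries. Its crushed values all lay below its intact values, and its log2 fold change was -0.21 (adjusted p = 0.150 by the edgeR test). Of the Id relatives of Id2, Id1 had a log2 fold change of -0.12, Id3 of 0.08 and Id4 of -0.35, with adjusted p-values between 0.229 and 0.492. The crushed values of Id4 all lay below its intact values, and those of Id1 and Id3 overlapped. Notch1, a receptor of the immature stage, differed by -0.18 on the log2 scale (adjusted p = 0.279). The 5 highest in FPKM were Id3, Rbpj, Chd4, Wwtr1 and Tead1. Of the listed regulators, Sox8, Sox9, Olig1, Pax6, Hes5 and Rxrg had 0 counts in every library.

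**Figure D4:**
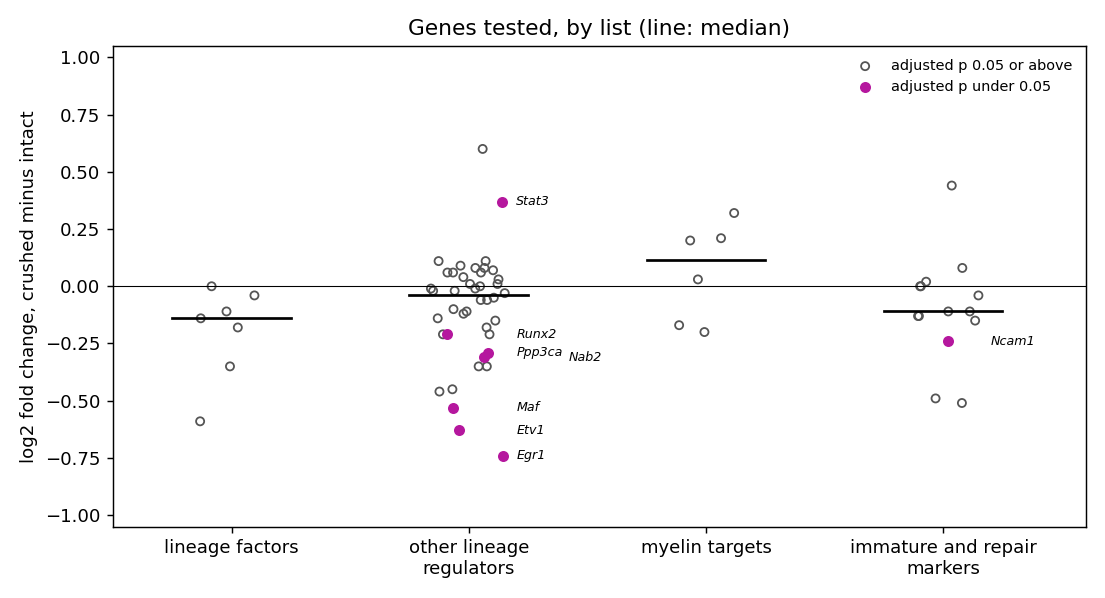
Log2 fold change, crushed minus intact, of the genes tested in each list, with filled points at an adjusted p under 0.05 and a line at the median of the list; the sideways position has no meaning. The 7 lineage factors hold no filled point, the other regulators hold 7 and the immature and repair markers hold 1.

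The known targets of Sox10 and Egr2 were mostly absent. Of 20 myelin genes, 12 never exceeded 3 counts in any library, and 7 of these had no count at all: Mag, Gjb1, Sh3tc2, Ugt8, Gldn, Pmp2 and Ncmap. Mbp, a protein of compact myelin, had 1 count in total. The 6 genes tested held 0 called in either direction at an adjusted p under 0.05, against 3.12% of all genes tested. At an unadjusted p under 0.05 there were 3 of 6, against 16.2% of all genes tested. Cnp, an enzyme of myelinating glia, had 45.3 ± 1.32 CPM in intact and 52.5 ± 2.42 CPM in crushed libraries (SD, n = 3 each, log2 fold change 0.21, adjusted p = 0.074 by the edgeR test). The log2 fold change was 0.20 for Ndrg1 (adjusted p = 0.121), -0.20 for the scaffold periaxin, Prx (adjusted p = 0.166), and 0.03 for Pmp22, a membrane protein of compact myelin (adjusted p = 0.834). Dhh, a Schwann cell ligand for perineurial cells, had an adjusted p of 0.465.

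Of 20 markers of immature and repair Schwann cells, 14 were tested, with a median log2 fold change of -0.11, 1 lower and 0 higher at an adjusted p under 0.05. Over all genes tested 1.65% were lower and 1.47% higher. Ncam1, an adhesion molecule of nonmyelinating cells, was the 1 lower, from 92.6 ± 5.47 to 78.4 ± 3.45 CPM (SD, n = 3 each, log2 fold change -0.24, adjusted p = 0.0438 by the edgeR test). This call held in 3 of 12 other settings. Leaving out intact library 1 or 2, or crushed library 1, 2 or 3, ended it, and its adjusted p reached 0.193 over the settings. For Gdnf, a trophic factor of repair cells, all crushed values lay above all intact values, with a log2 fold change of 0.44 (adjusted p = 0.113). For Bdnf, another trophic factor, it was 0.00 (adjusted p = 0.988). Shh, Gap43 and Fgf5 had 0 counts in every library. The 5 highest in FPKM were Ccnd1, Uchl1, Tgfb1, Clcf1 and Ncam1.

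Erbb3, the neuregulin receptor of the lineage and a known target of Sox10, belongs to the defining markers and was singled out after its value was seen. It had 135, 130 and 131 counts in intact and 90, 94 and 89 counts in crushed libraries. All crushed values were lower, with a log2 fold change of -0.59 (SE 0.118, adjusted p = 0.0222 by the edgeR test). The call held in 3 of 12 other settings. It was lost with a block for replicate number, with DESeq2 and with limma. Leaving out intact library 1 or 3 or any 1 of the crushed libraries also ended it, and its adjusted p reached 0.108 over the settings.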

How the data were processed

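The authors deposited 1 table with raw read counts and FPKM values per Ensembl gene for each library. The submitters' processing notes name HISAT2, StringTie 1.3.0 and Rnor_6.0, and the counting program and its use of strand are not given in the sources used here. The study's methods describe removal of ribosomal RNA and digestion with RNase R, which degrades linear RNA, before the libraries were made, so levels of linear transcripts may differ from those in untreated RNA. All 12 value columns were matched to libraries by their titles. Counts were tested with edgeR 4.0.16 (quasi-likelihood test, TMM factors, filterByExpr, R 4.3.3) on all 6 libraries together, without a replicate block, and p-values were adjusted over all 12393 genes with the Benjamini-Hochberg method. Standard errors come from the test statistic. Replicates of a group differed by more than sampling noise (chi-square over its degrees of freedom from 3.38 to 12.3). Alternatives were DESeq2 1.42.0, relative log expression factors, no filter, limma 3.58.1 on log2(FPKM + 0.1) and log2(FPKM + 1), the replicate block and each library left out. The script was tested on simulated data. Named genes are the 10 factors, the 2 tested genes nearest to each factor with an unadjusted p under 0.05, and those genes of the regulator, myelin and repair lists that had an adjusted p under 0.05, were among the 5 highest in FPKM or were at 0 in every library. Jun, Notch1, Egr3, Nab1, Id1, Id4, Ppp3r1, Mbp, Gdnf, Bdnf, Gfap and Erbb3 fall outside this rule and were chosen after their values were seen. The same holds for the cell type markers named or plotted as examples of their lists. Some genes are not reported here. The factors and lists were chosen with earlier results of these data known.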

Additional observations from a re-analysis of the deposited data

How the results depend on the processing

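None of the 7 lineage factors tested had an adjusted p under 0.05 or met the study's limits in any of the 12 alternatives, and the sign of 6 of them held in all 12. That of Nfatc4, close to 0, turned without intact library 1 (-0.01), intact library 3 (-0.04) and crushed library 2 (-0.03), and lay between -0.04 and 0.06 over the libraries left out. With the replicate block, 0 factors passed and Sox2 and Id2 kept unadjusted p-values of 0.0292 and 0.0318. Same-numbered libraries did not deviate together (correlations between -0.0148 and 0.0756). The block lost the single call among the immature and repair markers, as did the lack of a filter and limma on log2(FPKM + 0.1) and log2(FPKM + 1), with 0 lower in each. The block also lost the call of Erbb3. Across the fits that left out 1 library, the number of immature and repair markers lower lay between 0 and 1. The number of myelin genes higher lay between 0 and 1 (Ndrg1 without intact library 1, adjusted p = 0.0377 by the edgeR test). The number of regulators lower lay between 4 and 6. The latter was 7 with the block and with DESeq2 and 5 with limma. By normalized CPM, which unlike FPKM is not divided by gene length, 2 factors changed places, Yy1 and Tfap2a. The cause of the differences between crushed and intact libraries was not tested. Egr2 had 21 to 69 counts per library and a wide interval, and Sox10 and Pou3f2 were under the filter.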
